A study of Homo sapiens with 15 samples.

Results

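The genes studied encode proteins that remove or read 5-methylcytosine, the methylated base of CpG dinucleotides. They are 9 genes, TET1, TET2, TET3, TDG, MBD1, MBD2, MBD3, MBD4 and ZBTB33, out of 19768 protein-coding genes. G-quadruplexes (G4s), folded structures of guanine-rich DNA, were mapped in asynchronous K562 cells, an established human chronic myelogenous leukaemia line, by chromatin immunoprecipitation with a G4 antibody (BG4) and sequencing. There were 2 biological replicates, with technical libraries 1a and 1c in replicate 1 and 2a, 2b and 2c in replicate 2; the 2 input libraries and the HaCaT keratinocyte bisulfite libraries (4 treated with 10 uM entinostat for 48 h and 4 controls) were not analysed here. All BG4 libraries came from untreated K562 cells, so no treatment or genotype was compared. Members were the regions of the deposited high-confidence list, and the peaks of the 5 library lists, that lay within 1 kb of a GENCODE start site of these genes or inside them (GRCh37). This gave 9 of 8940 high-confidence regions and 50 of the 50770 peaks in the 5 lists. The lists held between 8059 (library 2a) and 12495 peaks (library 1a), and their sequencing depth is unknown. The list of library 2a names its peaks with the letter c and that of 2c with the letter a; the sample labels were used, so values of these libraries could be exchanged. K562 is aneuploid, and copies of each gene were not measured.

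The TET enzymes oxidise 5-methylcytosine stepwise, and TDG, a thymine DNA glycosylase, cuts out the most oxidised forms so that base excision repair can restore plain cytosine. These 4 are called erasers here. The MBD proteins share a methyl-CpG-binding domain; MBD2 and MBD3 belong to alternative forms of the NuRD repressor complex, MBD1 is a repressor, and MBD4 is also a glycosylase that removes thymine left by deaminated 5-methylcytosine. ZBTB33 (Kaiso) reads methylated CpG through zinc fingers. These 5 are called readers, although MBD4 could be placed with either group and mammalian MBD3 binds methylated DNA weakly.

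The following regions are printed on the strand of the gene, 5′ to 3′, from GRCh37. The first pair, at MBD2 (chr18:51750950-51751217, minus strand) and MBD3 (chr19:1592783-1593025, minus strand), were the only ones of the 9 that held a canonical G4 motif, set in capitals: 4 runs of 3 or more G, separated by 1 to 7 bases of any kind, on either strand.
MBD2 promoter: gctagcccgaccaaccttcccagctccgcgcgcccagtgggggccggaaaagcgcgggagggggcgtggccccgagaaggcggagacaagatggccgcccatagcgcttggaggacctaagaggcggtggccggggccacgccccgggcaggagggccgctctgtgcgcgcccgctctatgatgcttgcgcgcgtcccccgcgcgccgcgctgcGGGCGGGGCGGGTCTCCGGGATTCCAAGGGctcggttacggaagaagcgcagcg
MBD3 outer promoter: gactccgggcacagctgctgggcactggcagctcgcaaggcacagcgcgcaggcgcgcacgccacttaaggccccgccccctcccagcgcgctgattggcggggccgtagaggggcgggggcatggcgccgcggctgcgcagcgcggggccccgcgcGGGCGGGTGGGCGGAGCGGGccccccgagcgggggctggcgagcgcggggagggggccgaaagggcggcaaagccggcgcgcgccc
The next pair had the highest mean percentile of peak strength among the regions without that motif (MBD4, 300 of its 392 bases, chr3:129158882-129159181, minus strand) and the highest GC content among them (TET3, chr2:74229684-74229870, plus strand). Capitals there mark runs of 3 or more G or C.
MBD4 promoter: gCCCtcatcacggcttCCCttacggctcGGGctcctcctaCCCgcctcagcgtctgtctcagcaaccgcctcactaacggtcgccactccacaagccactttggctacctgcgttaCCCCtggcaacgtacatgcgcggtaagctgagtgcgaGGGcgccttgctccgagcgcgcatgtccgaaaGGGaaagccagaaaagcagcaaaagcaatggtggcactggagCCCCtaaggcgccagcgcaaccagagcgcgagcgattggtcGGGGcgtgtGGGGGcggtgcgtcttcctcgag
TET3 inner promoter: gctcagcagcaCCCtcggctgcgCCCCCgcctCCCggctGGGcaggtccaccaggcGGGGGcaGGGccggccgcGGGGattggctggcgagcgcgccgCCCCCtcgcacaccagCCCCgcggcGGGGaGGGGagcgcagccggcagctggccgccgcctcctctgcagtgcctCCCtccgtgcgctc
The last pair, with the same capitals, are the other eraser regions, at the TDG promoter (chr12:104359490-104359652, plus strand) and in an intron of TET3 (chr2:74276242-74276403, plus strand). Both were richer in G than in C on the gene's strand.
TDG promoter: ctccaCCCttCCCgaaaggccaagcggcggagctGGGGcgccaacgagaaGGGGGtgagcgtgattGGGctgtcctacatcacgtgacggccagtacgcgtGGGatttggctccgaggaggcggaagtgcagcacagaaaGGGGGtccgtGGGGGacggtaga
TET3 intron: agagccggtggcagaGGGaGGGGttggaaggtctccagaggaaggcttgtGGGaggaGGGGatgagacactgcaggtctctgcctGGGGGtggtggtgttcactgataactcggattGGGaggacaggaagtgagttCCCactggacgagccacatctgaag

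Most of these genes carried a BG4 region in the promoter, defined as within 1 kb of a start site of a protein-coding transcript. It was found at 7 of the 9 genes, against 34.9% of all protein-coding genes. The 7 were TET3 and TDG among the erasers (2 of 4) and MBD1, MBD2, MBD3, MBD4 and ZBTB33 among the readers (5 of 5). TET1 and TET2 had no high-confidence region, promoter or internal. MBD3 had 2 promoter regions, which 4.91% of all genes had, and TET3 had a second region in an intron. All 9 genes had a strict CpG island (windows of 500 bp, GC share of at least 0.55, observed over expected CpG of at least 0.65) at a start site, against 75.5% of all genes. Of all genes with such an island 45.4% had a promoter region. With 3 or more libraries required among the other 4, TDG and MBD1 had no region when library 1a, 1c or 2c was left out. The count was then 5 of 9, against 31.0%, 32.5% and 30.3% of all genes.

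At least 1 library had a peak at each of the 9 promoters, while 52.3% of protein-coding genes had none in any library. Promoter peaks in all 5 libraries were found at MBD2, MBD3 and MBD4, all readers, so 3 of 9 genes against 23.1% of all genes. Library 1a had a promoter peak at 9 of 9 genes (38.6% of all genes). Library 1c had one at 7 of 9 (32.7%), library 2a at 4 of 9 (32.0%), library 2b at 6 of 9 (35.5%) and library 2c at 7 of 9 (39.1%). The 4 genes with a promoter peak in library 2a were all readers, and none of the 4 erasers had a promoter peak there. These counts are descriptions with no test, since the genes were chosen with results of these data known.

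**Figure D1:**
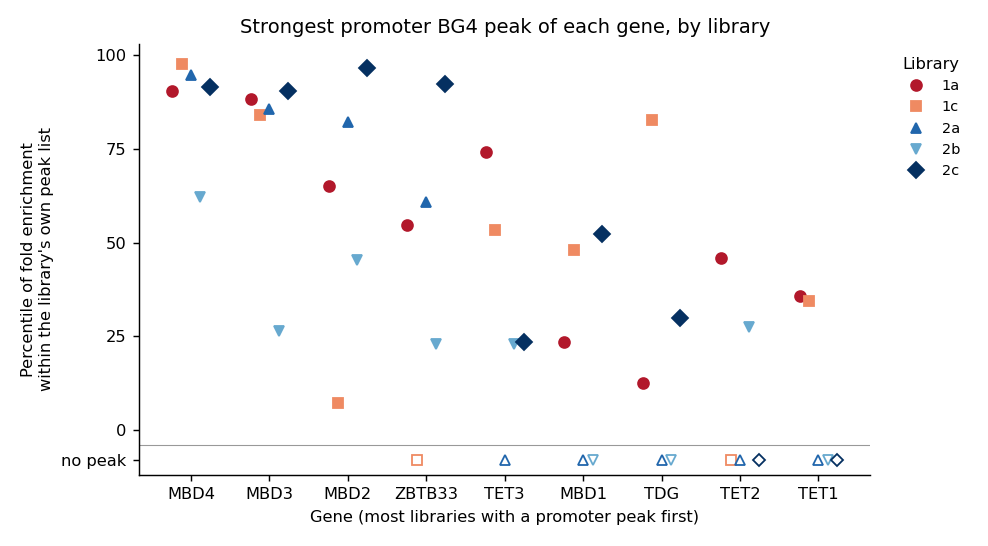
Percentile of fold enrichment of the strongest promoter peak of each gene, within the peak list of each of the 5 libraries; open symbols mark libraries with no promoter peak. MBD4 sits at 90.5 or higher in 4 libraries and at 62.1 in library 2b, and TET1 has peaks only in libraries 1a and 1c.

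Peak strength was read as fold enrichment over the local background, given by the authors' peak caller, and as its percentile within the library's own list. Means over libraries were taken within each biological replicate first, so each SD has n = 2. Genes were ordered by the number of libraries with a promoter peak and then by the mean percentile of the strongest one. MBD4 came first at 88.4 ± 7.96, followed by MBD3 at 76.8 ± 13.2 and MBD2 at 55.4 ± 27.3. The MBD3 mean mixed its promoter regions. The strongest peak lay at inner start sites in 1a, 1c and 2a and at the outermost ones in 2b and 2c. ZBTB33 had 56.8 ± 2.78 and TET3 43.4 ± 28.7 over 4 libraries each. The small SD of ZBTB33 does not show agreement of its libraries. In replicate 2 its percentiles ran from 22.9 in 2b to 92.3 in 2c, and replicate 1 had 1a alone. MBD1 had 44.0 ± 11.7 and TDG 38.7 ± 12.6 over 3 libraries each, with 2c alone in replicate 2. The TDG mean was 21.1 without library 1c and 56.3 without 1a, and that of MBD1 was 19.1 when only peaks with a −log10 p of 10 or more were kept. TET2 had 36.6 ± 13.0 over 2 libraries, and TET1 had 35.1 in replicate 1 alone. Each neighbouring pair in this order differed by less than the larger of their SDs, TET1 having none.

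Among the erasers, TET3 had the most peaks, 14 over the 5 libraries, 5 of them at a promoter. Its promoter region was not at the outermost start site but at an inner one, 17803 bp downstream. This region of 187 bp (chromosome 2, 74229684 to 74229870) covered that start site and lay over UTR and intron. Replicate 1 gave fold enrichments of 8.68 (1a) and 6.66 (1c) there, and replicate 2 gave 5.08 (2b) and 4.90 (2c), with no peak in library 2a. Both libraries of replicate 1 lay above those of replicate 2, with percentiles of 74.1 and 53.3 against 22.9 and 23.3. Within 1 kb of the outermost start site the only peak was that of library 1a, with a fold enrichment of 5.37. The GC content of the inner region, 80.7%, was in the 94.1 percentile of all high-confidence regions, yet no motif lay inside.

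The intronic TET3 region (chromosome 2, 74276242 to 74276403) was the only member region in the body of a gene and the only one outside a strict CpG island. It lay 46482 bp downstream of the nearest protein-coding start site and 2035 bp from the start of any TET3 transcript. It had a peak in all 5 libraries, as 4 of the 9 member regions had (against 55.0% of all high-confidence regions), but with low folds. Replicate 1 gave 6.35 for 1a and 5.84 for 1c, and replicate 2 gave 3.93 for 2a, 4.96 for 2b and 5.44 for 2c, at percentiles from 1.96 to 42.0. Of these peaks that of 2c alone had a −log10 p of 10 or more, and among such peaks it stood at the 8.51 percentile. The observed over expected CpG ratio was 0.255, in the 6.50 percentile of all regions. On the TET3 strand the sequence was 42.0% G and 17.3% C, with 6 runs of 3 or more G and 1 such run of C.

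TDG had a promoter region of 163 bp (chromosome 12, 104359490 to 104359652) over its start site, UTR and upstream sequence. Fold enrichment was 4.86 in library 1a, 8.97 in 1c and 5.20 in 2c, with no peak in 2a or 2b. Library 1c stood highest, at the 82.8 percentile, against 12.5 in 1a and 29.8 in 2c. The region was shared with UQCC6, a gene for an assembly factor of respiratory complex III, whose start site lay 114 bp away on the opposite strand. No G4 motif was found within 1 kb of a TDG start site, alone among the 9 genes.

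TET1 and TET2 had peaks in some libraries but no high-confidence region. TET1, with a single annotated start site, had promoter peaks in libraries 1a and 1c, with fold enrichments of 5.98 and 5.81, that overlapped each other by 191 bp. Library 1c had another promoter peak with a fold of 5.39, and 1a a peak 1155 bp downstream of the start site with a fold of 4.87. No TET1 peak was called in library 2a, 2b or 2c. Promoter peaks in both libraries of replicate 1 and in none of replicate 2 were rare, at 0.769% of all genes. TET2 had a peak in library 1a with a fold enrichment of 6.49 and a peak in 2b with a fold of 5.32. These did not overlap and lay 216 bp apart, so no stretch of the TET2 promoter was called in more than 1 library.

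Among the readers, MBD4 had the strongest and widest region (chromosome 3, 129158837 to 129159228). It spanned 392 bp, in the 91.6 percentile of widths, over start sites, UTR and upstream sequence. Fold enrichment in replicate 1 was 11.3 for 1a and 13.0 for 1c, and in replicate 2 it was 11.2 for 2a, 6.82 for 2b and 9.60 for 2c. Library 2b stood below the other 4, whose percentiles ran from 90.5 to 97.6. The region was shared with IFT122, a gene of intraflagellar transport on the opposite strand, with a start site 15 bp from one of MBD4. Its GC content of 62.2% was in the 16.7 percentile of all regions, and no motif lay inside it.

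MBD3 had an outer region (chromosome 19, 1592783 to 1593025) at its outermost start sites and an inner one (1592323 to 1592546) over start sites further in, where it met coding sequence, UTR and intron. In the outer region the folds of replicate 1 were 10.4 for 1a and 7.81 for 1c, and those of replicate 2 were 8.10 for 2a, 5.24 for 2b and 9.36 for 2c. In the inner region they were 10.8 for 1a, 9.15 for 1c, 9.43 for 2a and 8.16 for 2c, with no peak for 2b. Library 2b was thus lowest in the outer region, at the 26.4 percentile, and absent from the inner one, where the other libraries lay close together at percentiles from 81.7 to 88.4. Both regions lay in 1 strict CpG island of 1913 bp. The inner region had an observed over expected CpG ratio of 1.11, in the 93.3 percentile of all regions.

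MBD2 had a region of 268 bp over its start sites, UTR and upstream sequence (chromosome 18, 51750950 to 51751217). Its folds were 7.84 for 1a and 4.33 for 1c of replicate 1, and 8.99 for 2a, 5.98 for 2b and 11.1 for 2c of replicate 2. The libraries disagreed more here than at MBD4, with percentiles from 7.06 in 1c to 96.6 in 2c. ZBTB33 had a region of 149 bp over its start site, UTR and upstream sequence (chromosome X, 119384474 to 119384622). Fold enrichment was 7.03 for library 1a, 7.30 for 2a, 5.08 for 2b and 9.79 for 2c, and library 1c had no peak. Replicate 1 thus rested on a single library at ZBTB33.

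MBD1, with 16 protein-coding start sites, had the narrowest member region, 3 bp just upstream of its outermost start site (chromosome 18, 47808160 to 47808162). Of all high-confidence regions 0.470% were 10 bp or narrower. The region was the stretch common to peaks in libraries 1a, 1c and 2c, with fold enrichments of 5.40, 6.41 and 6.10. The peaks of 1c and 2c shared 123 bp, while that of 1a reached only 3 bp into that of 2c. No MBD1 peak was called in library 2a or 2b.

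**Figure D2:**
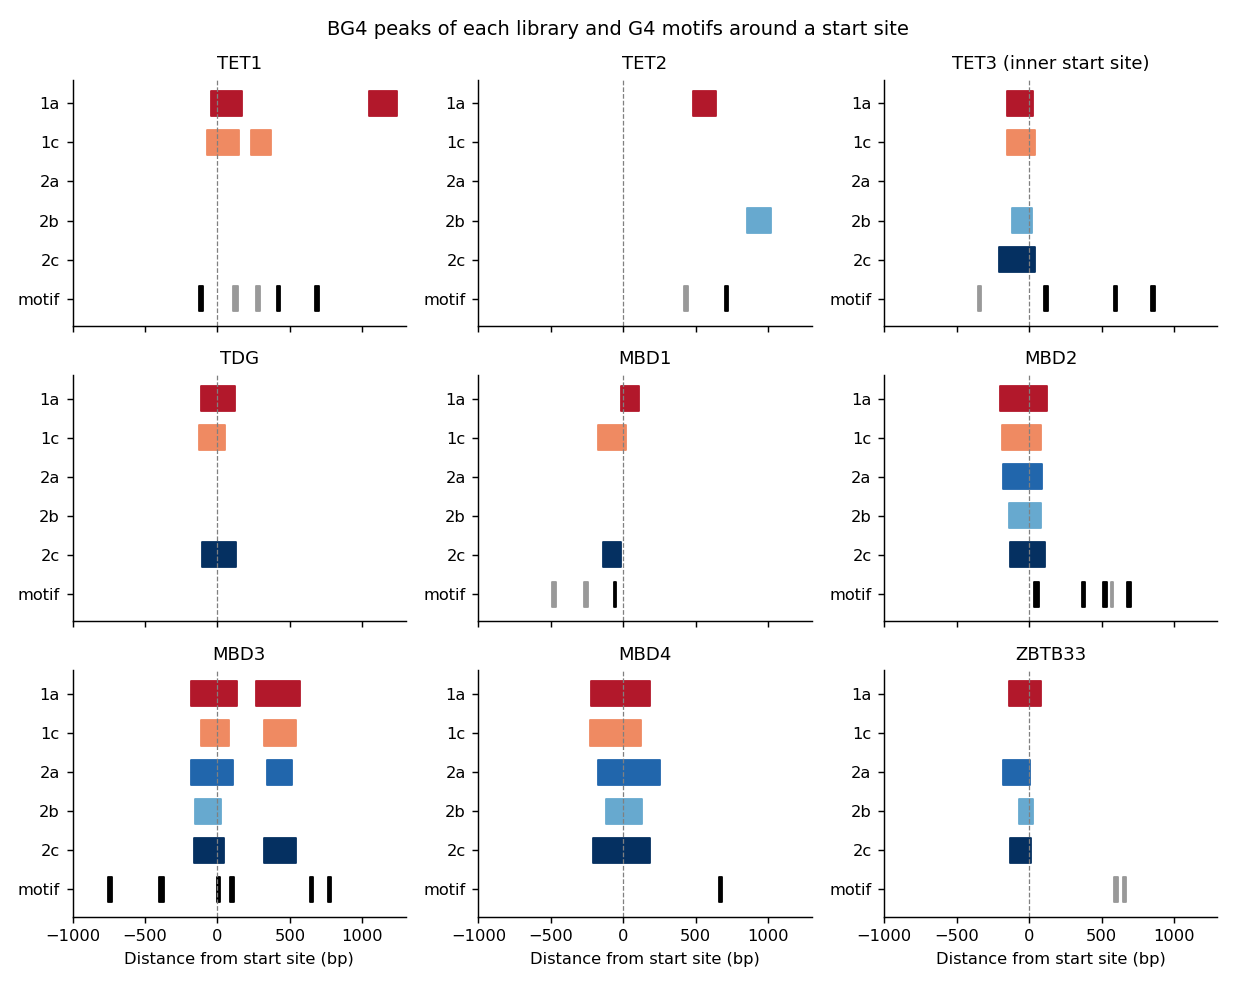
Peaks of each library (coloured bars) and G4 motifs (black on the strand that carries the gene's sequence, grey on the other) around the outermost start site of each gene, or the inner one for TET3; the horizontal axis is distance in bp, with the direction of transcription to the right. The peaks of MBD2 and MBD4 stack in all 5 libraries, those of TET2 do not meet, and most motifs lie outside the peaks.

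The peaks sat close to start sites. The 39 promoter peaks of the 9 genes were calls of 5 libraries, so a place called in several libraries was counted in each. Of these 39, 33 had their summit within 100 bp of the nearest protein-coding start site of the gene (84.6%). The share was 56.6% of promoter peaks of all genes. The number of protein-coding start sites ran from 1 at TET1 to 16 at MBD1, against a median of 3 over all genes. Its part in the share of 84.6% was not tested. Upstream of that start site lay 29 of the 39 summits (74.4%), against 79.3% over all genes. The median position was −48 bp, against −65 bp over all genes.

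Most of the regions, like most high-confidence regions of all genes, held no G4 motif when runs of 3 or more G were required. A motif was inside 2 of the 9 regions, against 34.7% of all high-confidence regions and 38.3% of those between 149 and 392 bp wide, the range of the other 8 regions without MBD1. With runs of 2 or more G allowed, a motif was inside 8 of the 9, all but the 3 bp at MBD1, against 91.8% of all regions and 97.3% of those of that width range. The statements that follow hold for runs of 3 or more G. In the promoter windows the motif was common, as it was over all genes. It was present at 8 of the 9 genes, against 73.4% of all protein-coding genes. Of their 44 partly overlapping windows of 2001 bp around a start site, 16 of them at MBD1, 86.4% held it, against 64.1% of all such windows. The 9 promoters held 43 motifs in all, 11 each at TET3 and MBD3 and 5 each at TET1, MBD1 and MBD2. Of the 6 genes with both a region and a motif, MBD2 and MBD3 had a region that overlapped one, against 50.8% of all such genes. Of their 35 motifs, 2 were overlapped (5.71%), against 20.3% over all such genes. At MBD2 that motif was centred 1 bp upstream of a start site, and at MBD3 6 bp downstream of one, both on the strand that carries the gene's sequence, and each lay under a peak in all 5 libraries. Of the 5 motifs at TET1, 1 lay under peaks of 2 libraries and 1 under a peak of 1, and the 3 motifs of TET2 lay under none. At MBD1 a motif 55 bp upstream of the nearest start site lay under peaks of 2 libraries but outside the region of 3 bp.

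**Figure D3:**
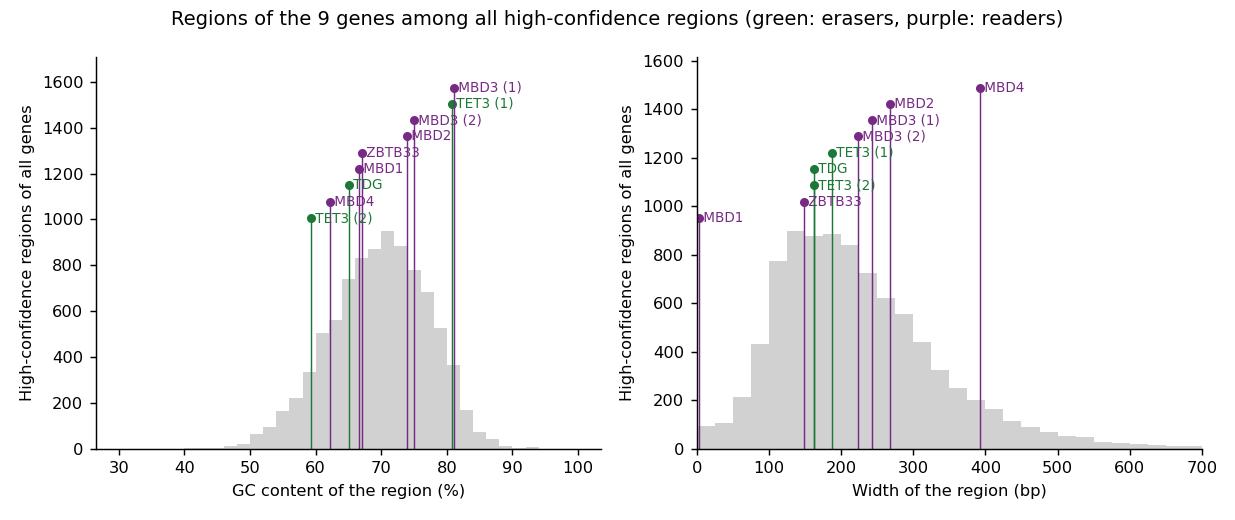
GC content (left) and width (right) of the 9 regions, as labelled pins, over histograms of all high-confidence regions; pin heights carry no value, and regions wider than the axis are not drawn. TET3 (1) is the promoter and (2) the intron, MBD3 (1) the outer and (2) the inner region. GC content ran from 59.3% in the TET3 intron to 81.1% at the outer MBD3 region, and MBD4 at 392 bp was the widest.

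In composition the 9 regions spread across the range of all regions. Their median GC content was 67.1%, against 70.1% over all regions, and their median width 187 bp, against 205 bp. A strict CpG island was met by 8 of the 9, against 83.2% of all regions. GGGCGG, the GC box that transcription factors of the SP family bind, was searched on both strands; it can overlap a G4 motif. It was present in 5 of the 9 regions, against 72.1% of all regions. Without the 3 bp at MBD1, too short to hold it, this was 5 of 8, against 80.0% of regions between 149 and 392 bp. The outer MBD3 region held 5 GC boxes and the MBD2 region 3, while the TDG region, the TET3 intron, the inner MBD3 region and the 3 bp at MBD1 held none. A match is a description of the letters and says nothing of binding.

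Companion genes, meaning partners of the erasers and readers and genes of related proteins, also had regions at most of their promoters. These were 35 of 50 over 4 lists, against the same 34.9% of all genes and 45.4% of those with a strict CpG island. Such islands were present at 50 of 50, against 75.5% of all genes. Of the base excision and TET partner genes 13 of 22 had a region. This count was 8 of 22 when library 1a, 1c or 2c was left out, against 31.0%, 32.5% and 30.3% of all genes. It was 4 of 22 with a −log10 p of 10 or more (against 24.9% of all genes) and 4 of 22 with all 5 libraries required (against 22.3%). The highest ranks were at GADD45A, a stress-response gene linked to demethylation (mean percentile 82.3 over 5 libraries), D2HGDH, which clears the TET inhibitor D-2-hydroxyglutarate (68.5 over 4), and the abasic-site endonuclease APEX1 (65.5 over 3). CXXC4 had no peak, and DCAF1 had promoter peaks in 4 libraries but no region. A place on the list named other methyl-CpG-binding proteins does not mean that the protein was shown to bind methylated CpG. On this list 9 of 11 genes had a region, led by MBD6 (87.9), SETDB2 (85.0) and UHRF1 (75.4), each in 5 libraries. BAZ2B had a peak in 1 library and UHRF2 in 2. Among NuRD partners of MBD2 and MBD3 there were 8 of 11, led by GATAD2A (98.0), MTA2 (86.8) and the histone-binding RBBP4 (83.2), each in 5 libraries. The NuRD helicase CHD4 had a peak in 2 libraries and no region, and MTA1 had no peak. Of the CXXC readers, which bind unmethylated CpG, 5 of 6 had one, led by KDM2A (90.5), FBXL19 (82.1) and KMT2B (73.5), each in 5 libraries, while KDM2B had no peak.

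**Figure D4:**
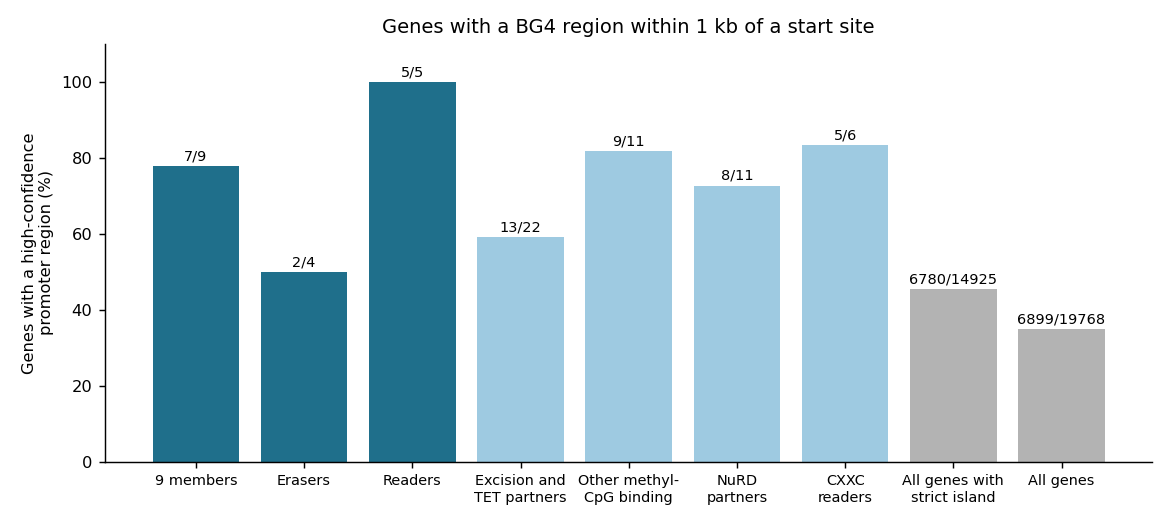
Percentage of genes with a high-confidence region within 1 kb of a start site. Bars show the 9 genes, their erasers and readers, the 4 companion lists, and all genes with or without the requirement of a strict CpG island. Numbers above the bars are genes with a region over genes. The 9 genes stand at 7 of 9, and all protein-coding genes at 34.9%.

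Genes with the most similar pattern over the 5 libraries were sought for the 3 genes with a promoter peak in each, by the mean absolute difference of the percentiles of the strongest promoter peak. Nearest to MBD4 were MAFA (2.37 percentile points) and LIMK1 (2.38). Nearest to MBD3 were DOLPP1 (3.54) and DCK (3.79), and to MBD2 RNPEPL1 (6.25) and EBP (7.59). With 5 libraries and 4566 genes to choose from, such closeness is a description only.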

How the data were processed

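BG4 chromatin immunoprecipitation was analysed in 5 K562 libraries. Peaks were called with MACS2 on hg19, per the submitters' processing notes. Settings, control library and aligner are not given in the sources used here. The deposited peak lists, 1 per library, gave a score, a fold enrichment (a ratio), and −log10 p and −log10 q at the summit, all by the authors' peak caller. The deposited high-confidence list gave other values, start and end alone. Its 8955 regions were identical to the bases covered by 3 or more of the 5 lists, and 15 on the mitochondrion were left out. The chromosome lengths of the GRCh37 reference held all listed positions except on the mitochondrion.

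Start sites came from GENCODE release 44 mapped to GRCh37. Of symbols with a protein-coding gene 26 that named several records were left out. Overlap meant 1 base or more. A percentile is the share of a library's peaks at or below a value. Positions count from 1. Python 3.11.15, numpy 2.4.6 and matplotlib 3.10.9 were used. Motif, overlap and coverage steps were tested on simulated data. The members and lists were chosen with earlier results of these data known. All 9 members were named. Companion genes were named as up to 3 strongest with a region and the first 2 in alphabetical order without, per list. No tests between groups were made. Alternatives were other windows, start sites, overlaps, thresholds and libraries left out.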

Additional observations from a re-analysis of the deposited data

Results flagged for a closer look

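The MBD4 region stood out by the library 2b. Its fold-enrichment percentile there was 62.1, while the other 4 libraries lay between 90.5 and 97.6, and the gap to the nearest of them was large for 5 values. Of 7 member regions with peaks in 4 or 5 libraries it was the only 1 to pass the limit set for this gap. For 5 values the limit was 0.71 of their range. The outer MBD3 region fell just short, with 26.4 in 2b against 71.7 to 90.4 in the other libraries. By the strongest promoter peak of each gene, MBD3 had 26.4 in 2b against 83.9 to 90.4. That measure mixed the MBD3 regions. The strongest peak was in the inner region in 1a, 1c and 2a, where 2b had no peak, and in the outer region in 2b and 2c. About 1 in 20 groups of independent values passes such a limit by chance. Technical libraries of 2 biological replicates are not independent, so this rate may not hold here. Library 2b was also the lowest at the outer MBD3 region, at 26.4, at ZBTB33, at 22.9, and at the TET3 promoter region, at 22.9 against 23.3 in 2c. At MBD2 it lay above library 1c and in the TET3 intron above 2a. The median percentile over all member peaks was 24.6 in library 2b, against 41.4 to 72.5 in the other 4 libraries, each over the peaks called in that library. The part of library 2b in these values was not tested.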

How the results depend on the processing

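When only peaks with a −log10 p of 10 or more were kept, the genes with a promoter region were 4 of 9 (MBD2, MBD3, MBD4 and ZBTB33, against 24.9% of all genes), and with regions of all 5 libraries 3 of 9 (against 22.3%). Companion genes had 22 and 20 of 50. Member regions then numbered 5 and 4. At that threshold 1 gene, MBD4, kept a promoter peak in all 5 libraries, against 12.8% of all genes. With runs of 2 or more G, a motif was inside 8 of the 9 regions in place of 2, against 91.8% of all regions in place of 34.7%. The median percentile of the member regions was 55.4; it was 50.7 by −log10 p and 45.0 among peaks of −log10 p of at least 10. Leaving out each library gave 5 to 7 genes with a region and 27 to 34 companion genes (against 30.3% to 32.7% of all genes). It gave 3 to 4 genes with a peak in all libraries left (against 23.4% to 25.7%). Regions then numbered 7 to 9, 2 of them with a motif, and the median percentile was 48.4 to 62.7. The windows of 500 bp and 2 kb, all transcripts' start sites and an overlap of 50% gave 7 of 9 genes each. The shares of all genes were 34.1%, 35.7%, 35.7% and 34.8% in that order. Complete start sites alone, chosen after seeing the data, also gave 7 of 9, against 34.7% of all genes. No paired analysis was possible because the BG4 libraries form 1 group and no groups were compared. The cause of these changes was not tested. The read depth behind each list is unknown, so a missing peak does not show that no structure was there.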

Other observations

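Weak peaks also lay inside the genes, outside any high-confidence region. In TET3 they were called in library 1c at 74222974 to 74223107 (fold enrichment 5.54), in 2b at 74223101 to 74223195 (3.59), in 2a at 74259738 to 74259844 (4.75) and in 2c at 74214736 to 74214858 (4.75), all on chromosome 2. Only those of 1c and 2b met, at their ends, and the −log10 p ran from 5.18 in 2b to 8.35 in 1c. MBD3 had a peak of this kind in library 1c (fold enrichment 5.08) and TET1 in 1a (4.87). TET2, at 133942 bp nearly as long as TET1 at 134151 bp, had none inside the gene beyond its promoter, and nor had TDG, MBD1, MBD2, MBD4 or ZBTB33.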
